A study of Mus musculus with 24 samples.

Results

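The Klf4, Oct4 and Sox2 peak lists of asynchronous mouse embryonic stem cells that carried the same project code, EC-EA-3702, were compared with each other. They came from 3 of the 24 samples of the series, 17 of which had a peak list. Each list came from 1 chromatin immunoprecipitation sequencing library (ChIP-seq, which enriches DNA cross-linked to a protein by an antibody), so n was 1 per factor and no comparison between factors had a replicate check. All 3 samples were of V6.5 cells, an embryonic stem cell line labelled strain C57BL/6-129 and age E3.5, with the asynchronous label and no genetic change named. Per the labels' protocols, the line was kept on irradiated feeder cells with LIF and serum, and was expanded on gelatin with inhibitors of Mek1 and Gsk3 for at least 2 passages before synchronization. The protocols do not say at which of these stages the asynchronous cells were fixed. Fixation was with 1% formaldehyde (10 min), and sequencing gave 50 nt from one end of each fragment. Antibodies used were Klf4 AF3158 and Sox2 AF2018 (R&D) and Oct4 SC-8628 (Santa Cruz), so a difference between factors cannot be told apart from a difference between antibodies or libraries.

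Klf4, Oct4 and Sox2 are transcription factors of pluripotent cells. Oct4 (encoded by Pou5f1) binds DNA through a POU domain, and Sox2 through an HMG box. These proteins can occupy adjoining DNA sites together as a pair. Klf4 is a zinc finger factor that recognises GC-rich sequence, and it acts with the others in keeping the naive state and in reprogramming. Acetylation of lysine 27 of histone H3 (H3K27ac) marks active promoters and enhancers.

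The Klf4 list held 16455 peaks, the Oct4 list 3347 and the Sox2 list 2986. Their median fold enrichment over local background, as the authors gave it, was 5.42, 5.46 and 5.82, and their median widths were 333, 297 and 201 bp. Peaks of different lists that shared at least 1 bp were merged, and a region was named by the factors with a listed peak in it. The 22788 peaks gave 20530 regions, of which 1946 (9.48%) had more than 1 factor. Each list was also cut to its 2986 strongest peaks by the −log10 p, the length of the Sox2 list, and is then called a list of equal length. Read depth was not given, so the length of a list may reflect depth or antibody, and no listed peak means only that none was listed. The asynchronous H3K27ac libraries carried another project code than the factor lists. They had peaks within 1 kb of each of 7 stem cell marker genes, with a highest fold of 20.0 to 39.8 in both libraries. Among 6 feeder fibroblast genes Col1a1 alone had one, with a fold of 4.04 in 1 library. Among neural progenitor genes, Pax6, Nes, Olig2 and Sox1 had such peaks in both libraries, with a highest fold of 4.04 to 9.03. Klf4 had regions within 20 kb of an end of Thy1 (3) and Col1a1 (1), and Oct4 and Sox2 each had 1 by Col3a1. By this rule Col1a2, Twist2 and Prrx1 had none.

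Promoter sequences (250 bases before to 50 after a transcription start, from RefSeq, GRCm38.p6, equal to mm10) are shown for genes with a peak of different factors over the start. Capitals mark 3 short words searched on both strands. The first, a core of Klf sites, was GGGTGTG. The octamer core bound by Oct4 was ATGCAAA. The core of Sox sites was CATTGT. A word on the opposite strand is read as its reverse complement. Where the Sox word, 1 base and the octamer word followed each other, the whole stretch is in capitals. The Nanog promoter held a peak of all 3 factors, the Zfp42 promoter one of Klf4 and Oct4, the Sox2 promoter one of Oct4 and the Cdk4 promoter one of Klf4. Each promoter shown held a searched word. Promoters of Pgk1 (folds of 13.4 for Klf4 and 26.5 for Oct4) and Pou5f1 (6.29 and 8.98) held none and are not shown.
Nanog, chr6:122707239-122707538, plus strand: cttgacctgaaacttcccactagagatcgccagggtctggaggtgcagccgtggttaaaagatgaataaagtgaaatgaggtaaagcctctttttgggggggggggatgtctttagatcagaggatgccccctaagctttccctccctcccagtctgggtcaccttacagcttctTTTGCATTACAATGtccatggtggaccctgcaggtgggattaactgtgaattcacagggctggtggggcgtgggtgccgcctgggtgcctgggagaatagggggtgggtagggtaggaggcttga
Zfp42, chr8:43306960-43307259, minus strand: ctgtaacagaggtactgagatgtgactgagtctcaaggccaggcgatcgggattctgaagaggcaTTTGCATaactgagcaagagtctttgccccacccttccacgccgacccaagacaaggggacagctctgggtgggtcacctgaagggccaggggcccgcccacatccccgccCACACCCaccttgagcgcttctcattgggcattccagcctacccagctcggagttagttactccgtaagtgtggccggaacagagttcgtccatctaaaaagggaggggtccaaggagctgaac
Sox2, chr3:34649745-34650044, plus strand: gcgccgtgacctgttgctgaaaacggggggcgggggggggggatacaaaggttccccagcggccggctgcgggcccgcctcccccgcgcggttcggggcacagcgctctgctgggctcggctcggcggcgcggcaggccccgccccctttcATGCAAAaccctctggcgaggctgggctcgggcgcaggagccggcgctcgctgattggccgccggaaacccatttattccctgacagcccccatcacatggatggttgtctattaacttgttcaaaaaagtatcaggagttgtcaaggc
Cdk4, chr10:127063285-127063584, plus strand: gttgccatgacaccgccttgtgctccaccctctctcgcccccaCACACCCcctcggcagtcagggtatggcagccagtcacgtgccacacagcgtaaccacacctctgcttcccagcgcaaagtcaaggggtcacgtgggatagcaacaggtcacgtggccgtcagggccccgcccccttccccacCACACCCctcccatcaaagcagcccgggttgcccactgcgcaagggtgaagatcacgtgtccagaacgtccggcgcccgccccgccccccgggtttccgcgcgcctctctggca
In the Nanog promoter the joined Sox and octamer words began at position -75 from the start. This joined word was found in 2 of 21262 promoter windows, both of them overlapping windows of Nanog. The Zfp42 promoter held the octamer word at -185 and the Klf word at -74, the Sox2 promoter the octamer word at -99, and the Cdk4 promoter the Klf word at -207 and -64. The peaks there had folds of 5.20 (Klf4), 7.81 (Oct4) and 6.82 (Sox2) at Nanog, a homeobox factor of the pluripotency network. At Zfp42, which encodes the stem cell marker Rex1, they had folds of 21.3 (Klf4) and 6.08 (Oct4). The Oct4 fold at the Sox2 start was 4.45, and the Klf4 fold at Cdk4, a kinase of the G1 phase, was 6.91.

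Over all promoter windows, which belonged to 17491 genes, Klf4 peaks overlapped 5040 (23.7%), Oct4 peaks 216 (1.02%) and Sox2 peaks 54 (0.254%). With lists of equal length Klf4 peaks overlapped 1306 (6.14%) and Oct4 peaks 170 (0.800%). The octamer word was in 13.0% of windows with an Oct4 peak (95% Wilson interval 9.12 to 18.1) and in 4.23% of all windows. The Sox word was in 37.0% of the 54 windows with a Sox2 peak (25.4 to 50.4) and in 11.0% of all windows, and the Klf word in 10.4% of windows with a Klf4 peak (9.57 to 11.2) and 8.02% of all. Median GC content was 65.3% in windows with a Klf4 peak, 62.5% with Oct4, 58% with Sox2 and 56.3% in all, and its part in the word counts was not tested. Intervals here and below cover counting error only.

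Regions with Klf4 alone made up 74.9% of all regions with the deposited lists and 35.5% with lists of equal length. All 3 factors shared 280 regions, Klf4 and Oct4 419, Klf4 and Sox2 359, and Oct4 and Sox2 888, while 15387 regions had Klf4 alone, 1753 Oct4 alone and 1444 Sox2 alone. With lists of equal length the count with all 3 fell to 71, with Klf4 and Oct4 to 100 and with Klf4 and Sox2 to 140, while that with Oct4 and Sox2 was 1037. Regions with Klf4 alone then numbered 2672, with Oct4 alone 1776 and with Sox2 alone 1724. Oct4 and Sox2 without Klf4 were thus the most frequent pair under both list lengths with these libraries.

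**Figure D1:**
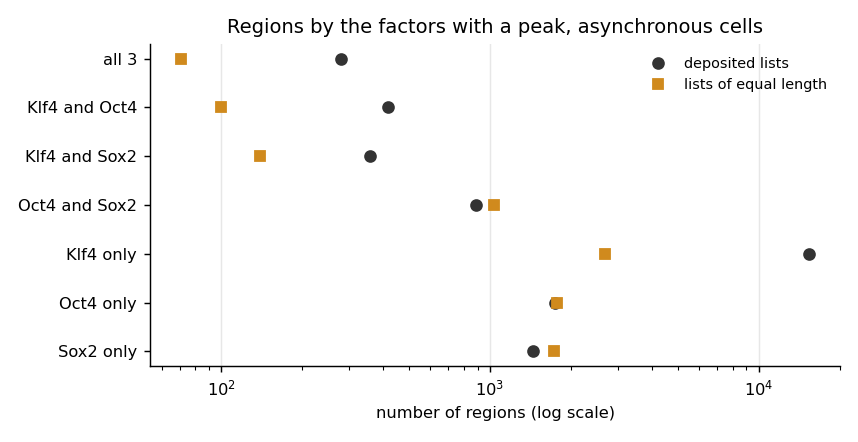
Number of regions (log axis) by the factors with a peak in them, for the deposited lists (circles) and the lists of equal length (squares). Regions of Oct4 and Sox2 number 888 and 1037, and those with all 3 factors 280 and 71.

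Of 3340 Oct4 regions 35.0% (33.4 to 36.6) had a Sox2 peak, and of 2971 Sox2 regions 39.3% (37.6 to 41.1) had an Oct4 peak. Klf4 peaks were in 20.9% of the Oct4 regions (19.6 to 22.3) and 21.5% of the Sox2 regions (20.1 to 23.0). In turn 4.25% of the 16445 Klf4 regions had Oct4 and 3.89% had Sox2. With lists of equal length the Oct4 and Sox2 shares were 37.1% and 37.3%, and the shares with Klf4 fell to 5.73% of Oct4 and 7.10% of Sox2 regions. Where peaks were shared, their midpoints lay a median of 37.2 bp apart for Oct4 and Sox2, 61 bp for Klf4 and Sox2 and 80 bp for Klf4 and Oct4. The midpoints were within 50 bp of each other in 62.9% (60.1 to 65.7), 42.4% (38.6 to 46.3) and 32.9% (29.5 to 36.5) of these regions. Klf4 peaks were wider, and summit positions were absent from the lists, so a midpoint distance also contains the widths. Across the shared regions the folds of Oct4 and Sox2 had a Spearman rho of 0.370 (1168 regions), those of Klf4 and Oct4 0.0499 (699 regions) and those of Klf4 and Sox2 0.0950 (639 regions). With lists of equal length the values were 0.372 (1108 regions), 0.218 (171 regions) and 0.0851 (211 regions). These are descriptions across regions of the same libraries, without a test.

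The series held 2 other asynchronous Klf4 lists, from projects EC-EA-2697 (10575 peaks) and EC-EA-2643 (21307 peaks), which gave the comparison of Klf4 a measure of its spread between libraries. Put in place of the EC-EA-3702 list, they raised the share of Oct4 regions with Klf4 to 29.5% and 47.0%, and that of Sox2 regions to 30.9% and 49.0%. Over the 3 Klf4 lists the shares were 32.5% ± 13.3 and 33.8% ± 14.0 (SD, n = 3). With the deposited list of project EC-EA-2643, Oct4 and Sox2 regions therefore had Klf4 more often than they had each other, the opposite order to that with project EC-EA-3702. Regions of the pairs then numbered 860 (Klf4 and Oct4), 747 (Klf4 and Sox2) and 461 (Oct4 and Sox2), and at equal length 207, 229 and 850. At equal length the shares with Klf4 were 15.1% and 15.6% for Oct4 and 15.4% and 16.4% for Sox2. These were above the values with project EC-EA-3702 and below the Oct4 and Sox2 shares under each of the 3 Klf4 lists. Of the strongest 2986 Klf4 peaks of project EC-EA-3702, 74.7% met a peak of the full EC-EA-2697 list and 94.0% one of the full EC-EA-2643 list. With those lists cut to equal length, 39.4% and 41.3% did so, and 50.5% (48.7 to 52.3) met neither cut list. The mean equal-length share over the 3 lists was 12.2% ± 5.58 for Oct4 and 13.0% ± 5.11 for Sox2 regions (SD, n = 3). Growth stage, read depth and cell batch of the projects were not given.

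**Figure D2:**
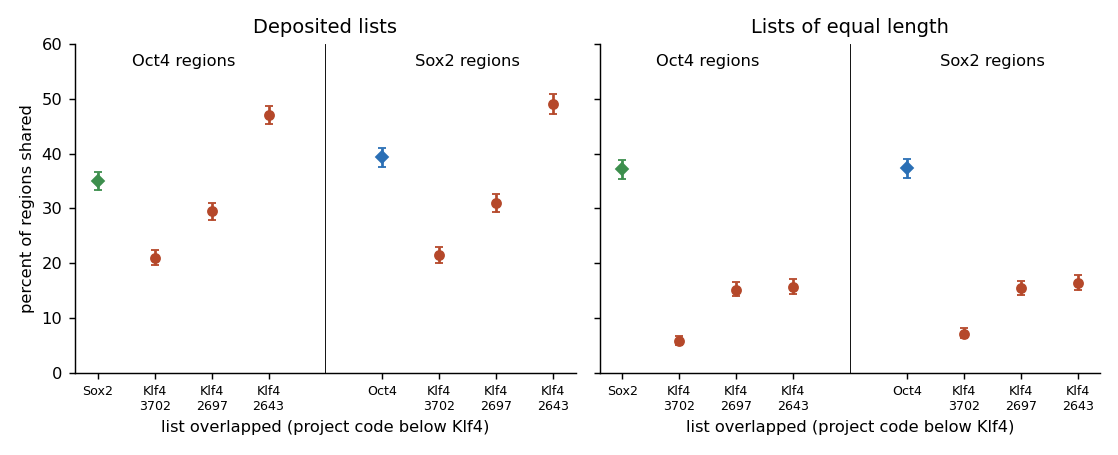
Percent of Oct4 and of Sox2 regions that had a peak of each other (diamonds) or of 1 of 3 asynchronous Klf4 lists (circles, project code below), for deposited lists and for lists of equal length, with 95% Wilson intervals. In the left panel Klf4 of project EC-EA-2643 lies above the diamonds, at 47.0% and 49.0%. In the right panel each Klf4 list lies below them.

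Klf4 regions lay nearest to genes and Sox2 regions farthest from them. A region was near a gene end when its nearer edge was within 1 kb of either end of 1 of 21883 protein-coding genes. This held for 38.5% of Klf4 (37.7 to 39.2), 10.8% of Oct4 (9.83 to 11.9) and 5.55% of Sox2 regions (4.79 to 6.44), against 32.2% of all regions. Median distances of the midpoint to an end of the nearest gene (the gene itself for a region inside one) were 4.11, 18.4 and 24.3 kb. For genes with a known strand, 29.2% of Klf4 regions lay within 1 kb of a start and 2.09% only of the other end. For Oct4 these were 7.46% and 1.65%, and for Sox2 3.30% and 1.11%. With lists of equal length the shares near a gene end were 48.3%, 9.75% and 5.45%, and at equal length the other Klf4 lists gave 27.7% (EC-EA-2697) and 24.1% (EC-EA-2643). Under each Klf4 list Klf4 regions were near a gene end more often than Oct4 regions, and Oct4 more often than Sox2 regions. Among all regions of the equal-length lists 23.7% were near a gene end.

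**Figure D3:**
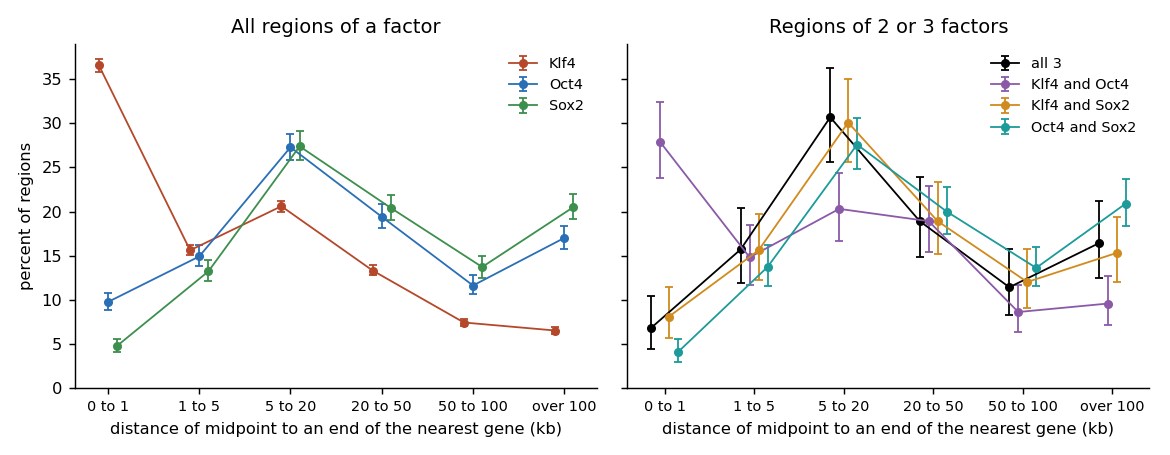
Percent of regions by distance of the midpoint to an end of the nearest gene (the gene itself for a region inside one), for all regions of a factor (left) and for regions of more than 1 factor (right), with 95% Wilson intervals. By this measure Klf4 has 36.6% of its regions within 1 kb, Oct4 9.73% and Sox2 4.75%, and among shared regions those of Klf4 and Oct4 have most there.

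Among regions with Klf4, those with a Sox2 peak were near a gene end less often. Near a gene end were 39.9% of the regions with Klf4 alone (39.2 to 40.7), 29.6% of those with Klf4 and Oct4 (25.4 to 34.1), 9.75% of those with Klf4 and Sox2 (7.09 to 13.3) and 8.21% of those with all 3 (5.54 to 12.0). For Oct4 alone the share was 9.81%, for Oct4 and Sox2 4.84% and for Sox2 alone 4.43%. Over the 3 Klf4 lists the regions of Klf4 and Oct4 gave 22.8% ± 5.85, those of Klf4 and Sox2 7.82% ± 1.79 and those with all 3 7.24% ± 0.855 (SD, n = 3, the Oct4 and Sox2 lists being the same). Among these lists the lowest value for Klf4 and Oct4, 19.4%, was above the highest for Klf4 and Sox2, 9.75%.

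Oct4 regions without Klf4 often had a Klf4 region close by. Of 2641 such regions 42.9% (41.1 to 44.8) had one within 20 kb, as had 37.7% (35.7 to 39.6) of 2332 Sox2 regions without Klf4. With lists of equal length these fell to 12.4% and 10.6%. Oct4 regions without Sox2 had a Sox2 region within 20 kb in 13.2%, and Sox2 regions without Oct4 an Oct4 region in 12.9%, with 12.7% and 12.0% at equal length. On chromosome X lay 1.36% of Klf4, 1.41% of Oct4 and 1.41% of Sox2 regions, where 4.41% of the genes lie.

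Regions with Klf4 and a partner overlapped H3K27ac most often. The asynchronous H3K27ac lists carried another project code than the factor lists. A peak of both H3K27ac lists overlapped 84.6% (80.0 to 88.4) of the regions with all 3 factors, 83.1% of those with Klf4 and Oct4 and 81.1% of those with Klf4 and Sox2. It overlapped 57.5% (56.7 to 58.3) of those with Klf4 alone and 53.0% of those with Oct4 and Sox2. The shares were 35.1% (32.9 to 37.4) for Oct4 alone and 33.5% (31.1 to 36.0) for Sox2 alone, against 55.0% of all regions and 57.3% of all regions of the equal-length lists. Away from gene ends they were 84.4% with all 3, 44.7% with Klf4 alone, 31.9% with Oct4 alone and 33.1% with Sox2 alone. Regions with all 3 had a median width of 525 bp, those with Klf4 alone 331 bp and those with Sox2 alone 185 bp, and a wider region can meet a peak more often. In a window of fixed width, 500 bp to each side of the midpoint, the shares were 87.1% with all 3, 63.0% with Klf4 alone, 44.2% with Oct4 alone and 55.9% with Sox2 alone. Sox2 alone was then above Oct4 alone. With the midpoint itself inside an H3K27ac peak the shares were 34.6% with all 3 (29.3 to 40.4), 36.4% with Klf4 alone, 19.3% with Oct4 alone and 14.8% with Sox2 alone, so the lead of the regions with all 3 over Klf4 alone did not hold at the midpoint. Over the 3 Klf4 lists the fixed window gave 86.0% ± 2.80 for all 3 factors and 66.6% ± 5.04 for Klf4 alone (SD, n = 3).

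**Figure D4:**
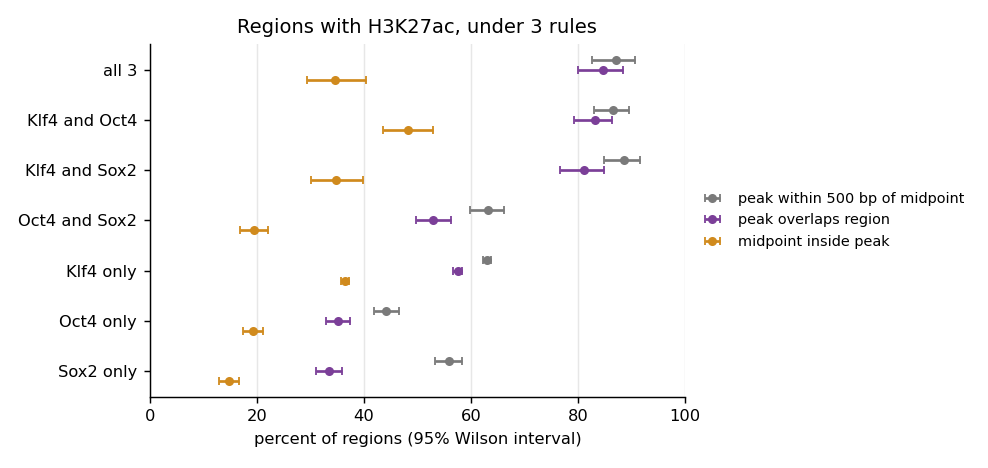
Percent of regions of each factor combination with a peak of both H3K27ac lists, under 3 rules (within 500 bp of the midpoint, overlapping the region, or containing the midpoint), with 95% Wilson intervals. Regions with all 3 factors stand at 87.1%, 84.6% and 34.6%, and those with Klf4 alone at 63.0%, 57.5% and 36.4%.

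Stronger Oct4 and Sox2 peaks shared a region more often. When the regions of a factor were split into 5 equal groups by −log10 p, 19.0% (16.2 to 22.2) of the weakest and 58.4% (54.6 to 62.1) of the strongest Oct4 regions had Sox2. Of Sox2 regions 22.4% and 64.0% had Oct4. The share of Oct4 regions with Klf4 went from 20.2% to 26.9% and that of Klf4 regions with Oct4 from 2.89% to 6.69%. Near a gene end were 30.5% of the weakest and 47.8% of the strongest Klf4 regions of project EC-EA-3702. Both other Klf4 lists went the other way when cut to their 2986 strongest peaks. Their share near a gene end fell from 33.3% to 27.7% (EC-EA-2697) and from 30.1% to 24.1% (EC-EA-2643). For Oct4 the share near a gene end was 15.7% in the weakest, 6.29% in the fourth and 10.8% in the strongest group, and for Sox2 6.05% and 5.39%. H3K27ac overlapped 43.4% of the weakest and 78.4% of the strongest Klf4 regions, 48.7% and 56.9% of Oct4, and 38.0% and 67.5% of Sox2 regions. Median width rose with strength, from 223 to 445 bp for Oct4, so width moves with each of these shares and its part was not tested.

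**Figure D5:**
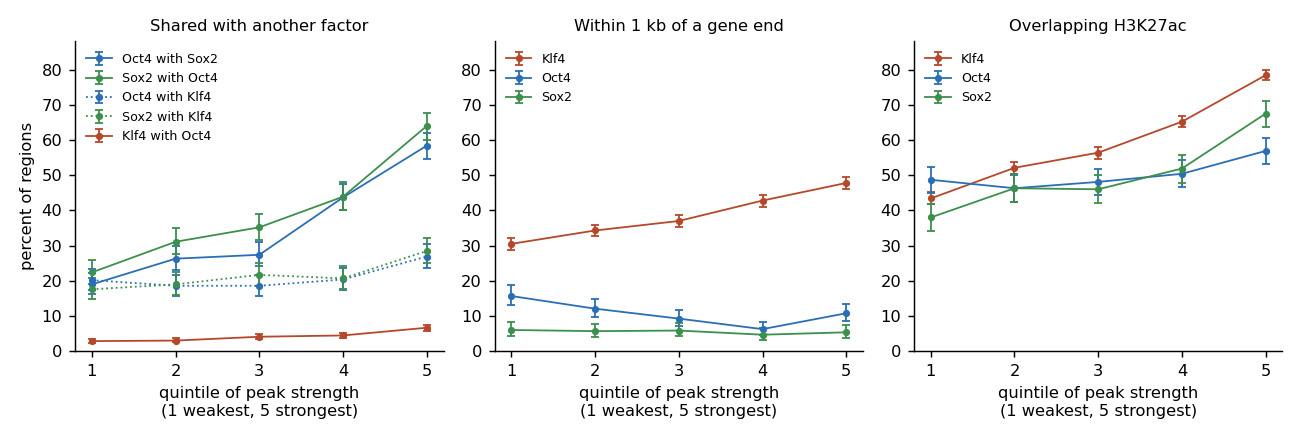
Percent of regions shared with another factor, near a gene end and overlapping H3K27ac, by quintile of peak strength (−log10 p) within each factor, with 95% Wilson intervals. The shares of Oct4 with Sox2 and of Sox2 with Oct4 rise from 19.0% and 22.4% to 58.4% and 64.0%.

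Lists outside the comparison were read at the same regions. A Klf4 peak of project EC-EA-2697 was found at 78.9% of the regions with all 3 factors, 68.7% of Klf4 and Oct4, 72.1% of Klf4 and Sox2 and 36.2% of Klf4 alone. In project EC-EA-2643 these were 90.4%, 89.3%, 89.4% and 63.6%. At regions of the equal-length lists, the shares with all 3 and with Klf4 alone were 94.4% and 72.8% (EC-EA-2697). In project EC-EA-2643 they were 97.2% and 93.7%. In the deposited list the median Klf4 percentile by −log10 p was 61.0 with all 3 and 49.4 with Klf4 alone. The part of peak strength was not tested. At regions of the deposited lists, the list of EC-EA-2697 or EC-EA-2643 had a Klf4 peak at 53.3% (50.0 to 56.5) of the regions of Oct4 and Sox2. The share was 29.8% of Oct4 alone and 31.1% of Sox2 alone, although the EC-EA-3702 list had none there. Lists of cells collected in mitosis showed the same kind of difference for the pair. Mitotic Oct4 lists (1246 and 5282 peaks) had a peak at 47.2% and 86.3% of the regions of Oct4 and Sox2, but at 11.7% and 51.1% of those of Oct4 alone. Mitotic Sox2 lists (4537 and 1940 peaks) had one at 84.1% and 58.9% of the former and at 58.9% and 33.4% of those of Sox2 alone. In the deposited lists the median Oct4 percentile was 64.5 at regions of Oct4 and Sox2 and 42.1 at those of Oct4 alone. The median Sox2 percentile was 63.3 at regions of Oct4 and Sox2 and 40.7 at those of Sox2 alone. Here too the part of peak strength was not tested. Of the regions of Oct4 alone, 20.4% and 6.33% had a mitotic Sox2 peak, and of those of Sox2 alone 6.93% and 26.6% had a mitotic Oct4 peak.

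A gene was linked to a region when the region's nearer edge lay within 20 kb of either end of the gene. A region inside a long gene but farther than this from both ends was not linked to it. Klf4 had a region by 54.4% of the 21883 genes, Oct4 by 11.8% and Sox2 by 8.89%. All 3 factors had regions by 804 genes (3.67%), and a single region shared by all 3 lay by 241 genes (1.10%). A region shared by Oct4 and Sox2, with or without Klf4, lay by 3.81%. Klf4 was the sole factor by 42.0% of genes, Oct4 by 1.56% and Sox2 by 1.20%, and no region lay by 41.9%. With lists of equal length the shares with a region were 17.9% for Klf4, 10.4% for Oct4 and 8.88% for Sox2, with 325 genes (1.49%) linked to all 3, 0.315% to a region shared by all 3 and 3.56% to one shared by Oct4 and Sox2. Klf4 was then the sole factor by 13.2%, Oct4 by 4.25% and Sox2 by 3.30%, and 71.8% had no region.

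Of 29 naive pluripotency genes 28 had a Klf4 region, 20 an Oct4 region and 16 a Sox2 region, and 14 had all 3. Over all genes these shares were 54.4%, 11.8%, 8.89% and 3.67%. The 14 were Dppa3, Dppa5a, Esrrb, Fbxo15, Klf2, Lefty1, Mycn, Nanog, Pou5f1, Prdm14, Sox2, Trim28, Zfp42 and Zscan10. At 8 of them (Esrrb, Fbxo15, Klf2, Lefty1, Mycn, Nanog, Pou5f1 and Trim28) a single region held all 3 peaks. At equal length 13 genes had Klf4, 20 Oct4, 16 Sox2 and 8 all 3, and a single region of all 3 lay by 3 (Esrrb, Fbxo15 and Klf2). Over all genes the equal-length shares were 17.9%, 10.4%, 8.88% and 1.49%. A single region of all 3 lay by 1.10% of all genes with the deposited lists and 0.315% at equal length. With the deposited lists Klf4 was the sole factor by Gbx2, Klf4, Klf5, Nr5a2, Sall4, Tcl1 and Tdgf1. At equal length it was the sole factor by Klf5 and Tdgf1. Over all genes Klf4 was the sole factor by 42.0% with the deposited lists and 13.2% at equal length. With the deposited lists Nr0b1 (Dax1, an orphan nuclear receptor) was the single gene of the list without Klf4. It had an Oct4 region 10.4 kb away with a fold of 5.46.

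At Pou5f1, the gene of Oct4, 10 regions lay within 20 kb. The region 1.64 kb from the gene held all 3 factors (17:35503693-35504397, folds of 3.53 for Klf4, 15.7 for Oct4 and 9.38 for Sox2). At the gene's start a region held Klf4 and Oct4 (17:35505772-35506567, folds of 6.29 and 8.98). Inside the gene lay 4 Oct4 regions with folds of 3.88, 3.78, 6.03 and 4.60, where neither Klf4 nor Sox2 had a listed peak. At Sox2 the strongest region was one of Oct4 and Sox2 1.23 kb from the gene (3:34653690-34654327), with an Oct4 fold of 31.9 and a Sox2 fold of 21.1. It had no Klf4 peak in the EC-EA-3702 list, but one in both other asynchronous Klf4 lists. The Klf4 region by Sox2 was 11.6 kb away with a fold of 4.77.

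Nanog had 5 regions within 20 kb. Besides the promoter region, one of Klf4 and Sox2 lay 4.23 kb away (6:122702339-122703260, folds of 9.99 and 5.60). Dppa3, a maternal factor gene of the same chromosome, had a region of Oct4 and Sox2 1.49 kb away (folds of 8.28 and 13.1) and a separate Klf4 region at its end (fold of 5.18). Esrrb, which encodes a nuclear receptor without a known hormone, held all 3 in one region (12:86501408-86502146, folds of 9.99, 4.04 and 8.45). By Klf2, a factor related to Klf4, all 3 were 12.6 kb away (8:72334243-72334791, folds of 7.92, 4.77 and 8.62), nearer to Eps15l1. Fbxo15, a stem cell marker gene, had all 3 at an end of the gene, with a Klf4 fold of 45.7 against 6.69 for Oct4 and 5.45 for Sox2. Tdgf1, a Nodal co-receptor gene, had 4 Klf4 regions with folds of 4.46 to 13.4.

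In each of the 3 signalling lists, 1 to 4 genes had all 3 factors, against 3.67% of all genes (54.4% with Klf4, 11.8% with Oct4 and 8.89% with Sox2). At equal length 1 gene of the Nodal, Bmp and Id list (Lefty2), 2 of the Wnt list (Fzd5 and Tcf7l1) and 1 of the LIF and Stat3 list (Junb) had all 3. Among 17 Nodal, Bmp and Id genes 15 had Klf4, 5 Oct4 and 4 Sox2, and Id3, Lefty1 and Lefty2 had all 3 in a single region. By Lefty2, a Nodal antagonist, the folds were 11.2, 16.5 and 10.8 (1:180888526-180889603). By Lefty1, its relative, they were 5.43, 13.1 and 8.66, with a region of Oct4 and Sox2 0.960 kb from the gene at 17.8 and 8.19. Of 16 Wnt genes 12 had Klf4, 5 Oct4 and 5 Sox2, and Fzd5, Lef1, Tcf7 and Tcf7l1 had all 3. Inside Tcf7l1, a repressor of Wnt targets, 1 region held folds of 8.47, 7.58 and 11.3 (6:72787264-72787808). Of 12 LIF and Stat3 genes 11 had Klf4, 3 Oct4 and 5 Sox2. Junb had all 3, in separate regions, and Il6st (the gp130 receptor subunit) had a region of Oct4 and Sox2 1.27 kb away with folds of 11.6 and 20.3 and no Klf4 in the EC-EA-3702 list. The 18 Klf and Sp genes had Klf4 by 16, Oct4 by 5 and Sox2 by 6, and all 3 by Klf2, Klf10 and Klf13.

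Primed pluripotency genes had Klf4 by 10 of 14, Oct4 by 5 and Sox2 by 3, with all 3 by Foxd3, Lef1 and Otx2. At equal length Foxd3 was the only primed gene with all 3. For this and the next lists, the deposited shares over all genes were 54.4% with Klf4, 11.8% with Oct4, 8.89% with Sox2 and 3.67% with all 3. Among lineage regulators, 9 of 12 endoderm genes had Klf4, 1 Oct4 and 1 Sox2, and none all 3. Of 14 mesoderm genes 6 had Klf4, 0 Oct4 and 1 Sox2. Of 16 neural genes 9 had Klf4, 5 Oct4 and 4 Sox2, and Sox21 had all 3. At equal length no endoderm or neural gene had Klf4, while 4 neural genes had Oct4 and 4 Sox2. Over all genes these equal-length shares were 17.9%, 10.4% and 8.88%. Pax6, a neural and eye factor, had a region of Oct4 and Sox2 with folds of 4.40 and 4.68, and Zic1, a zinc finger gene of neural tissue, an Oct4 region with a fold of 19.3. Both lacked Klf4.

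Lists of the cell's general machinery and of epithelial junctions were linked to Klf4 more often than to the other factors with the deposited lists. The same order held over all genes, of which 54.4% had Klf4, 11.8% Oct4 and 8.89% Sox2. Klf4 was by all 18 glycolytic genes, by 17 of 20 ribosomal protein genes, 16 of 20 G1 and S phase genes, 14 of 20 mitotic genes and 17 of 20 epithelial junction genes. Oct4 was by 4, 1, 5, 3 and 5 of these genes and Sox2 by 3, 1, 2, 3 and 1. Klf4 was the sole factor by 12, 15, 11, 11 and 11 of them, against 42.0% of all genes. At equal length Klf4 was by 3, 4, 7, 4 and 6 of them, where 17.9% of all genes had it, and the sole factor by 2, 3, 5, 3 and 4, where this held for 13.2%. Oct4 was then by 4, 1, 4, 3 and 4 of them (10.4% of all genes) and Sox2 by 3, 1, 2, 3 and 1 (8.88% of all genes). Among the glycolytic genes Klf4 thus did not lead at equal length. All 3 factors were by Hk2, a hexokinase gene (folds of 5.60, 5.70 and 5.16), and by Cdk6, a G1 kinase gene (4.08, 14.2 and 8.49). They were also by Mycn, a Myc family gene in 2 of the lists. Of 24 chromatin regulators 22 had Klf4, 5 Oct4 and 8 Sox2, and Kdm5b, Mtf2 and Tet2 were among those with all 3. Inside Tet2, a 5-methylcytosine dioxygenase gene, the shared region had folds of 12.7, 36.1 and 8.11 (3:133524331-133525215). Of 15 fibroblast genes 4 had Klf4, 2 Oct4 and 1 Sox2.

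The strongest regions were ranked by the mean percentile of −log10 p within the lists. Among those with all 3 factors, regions lay 18.1 kb from Klf13 (7:63956985-63957604, folds of 15.6, 17.4 and 12.2), 93.5 kb from Tprg and by Gabbr1 (a GABA-B receptor subunit). The strongest of Oct4 and Sox2 lay inside Abca4, a retinal lipid transporter gene (3:122145226-122146078), with the highest Oct4 fold, 56.8, and a Sox2 fold of 22.5. Next in that group were the region by Sox2 described above and regions 21.1 kb from Gm6871 and 23.2 kb from Sall1. Klf4 and Oct4 shared strong regions inside Flrt1 (19:7143822-7144622, folds of 29.5 and 22.5), Crlf2 and Kdm3b and at Pgk1. Klf4 and Sox2 did so by Elobl, Cd9, Sox13 and N4bp1, with Klf4 folds of 11.1 to 18.8 and Sox2 folds of 9.55 to 13.7. Klf4 alone was strongest by Grap (fold of 49.8) and inside Rbpms (52.8), Map3k6 (42.0) and Hdac4 (40.3). Each of these had a Klf4 peak in all 5 other Klf4 lists, asynchronous and mitotic. Oct4 alone was strongest at Rnf169 (42.7), Ndufa4l2 (46.1) and Lemd1 (44.9) and by Lmtk2 (41.2), and Sox2 alone by Apol7a (24.3), Sptlc2 (19.1), Hecw1 and Tmprss13 (15.7). Of these 4 Oct4 regions the one at Rnf169 had a Klf4 peak in both other asynchronous Klf4 lists. Among the Sox2 regions those by Apol7a and Sptlc2 had one in both, and that by Hecw1 in neither. The Apol7a region also had a peak in both mitotic Oct4 lists, and the Sptlc2 region in the second of them.

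By number of linked regions Klf4 led at Gas8 (13), Nfic (12), Gng7 (11) and Gm40363 (11), and Oct4 at Cchcr1, Pou5f1 and Tcf19 (6 each) and Reep3 (4). Sox2 led at Ndufs4 (4) and at Cchcr1, Pou5f1 and Reep3 (3 each). Cchcr1 and Tcf19 are neighbours of Pou5f1, so the same regions counted for each. At the limit of equal length, the last Klf4 peak inside (in Ppp3cb) and the first outside (57.9 kb from Cdh9) both had a fold of 9.40 and a −log10 p of 17.8, which 39 peaks shared. For Oct4 the peak inside (185 kb from Gm15319) had a fold of 3.38 and the one outside (by Hjurp) 3.54, with a −log10 p of 5.63.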

How the data were processed

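Klf4, Oct4 and Sox2 ChIP-seq was compared over 1 asynchronous library each. Per the submitters' processing notes, cutadapt 1.8.1, Bowtie2 2.2.5, deepTools 2.3.6 and MACS2 2.1.1 were used with the mm10 build. The deposited lists gave each peak's enrichment as a fold (a ratio to background) and its p and q as −log10 values, as the authors computed them. Every peak of the 3 lists had a −log10 p of at least 5, and 67.3% (Klf4), 41.2% (Oct4) and 20.2% (Sox2) of the numbered peaks were listed. In the Sox2 list 3.18% had q above 0.05.

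Peaks were merged, counted and drawn with Python 3.11.15, numpy 2.4.6, pandas 2.3.3, scipy 1.17.1 and matplotlib 3.10.9, and the merging was tested on simulated data. Gene spans (21883 protein-coding genes, without strand) and promoters came from RefSeq, GRCm38.p6; starts were known for 79.9% of these genes. With 1 library per factor no test was made, and shares have 95% Wilson intervals. The lists and the 16 gene lists (271 genes) were chosen with earlier results of these data known. Named were the 4 regions of each factor combination with the highest mean percentile of −log10 p, genes of the lists with all 3 factors, naive genes, the 4 genes with most linked regions of each factor and the peaks at the equal-length limit; Pax6, Zic1, Il6st and Cdk4 were named after their values were seen. Some items that the rule names are not reported here. Alternatives were list length, q limits, overlap, distance and H3K27ac rules, gene windows and other Klf4 lists. Equal-length and gene-end values with other Klf4 lists, and the 500 bp H3K27ac window, were added after seeing the data.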

Additional observations from a re-analysis of the deposited data

How the results depend on the processing

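No paired analysis was possible because each factor had 1 asynchronous library. Of 84 recomputed values 22 stayed within their counting interval (counts within 1.5 times) and 62 moved. The count of regions with all 3 factors was 71 at equal length, 86 with −log10 q of at least 5, and 469 and 710 with the Klf4 lists of projects EC-EA-2697 and EC-EA-2643. At equal length the Oct4 share with Sox2 was 37.1% (31.7% with −log10 q of at least 5) and the Sox2 share with Oct4 37.3%. The Oct4 share with Klf4 was 5.73% at equal length, 16.0% with the q limit, 19.4% when 50% of the shorter peak had to overlap, 29.5% and 47.0% with the other Klf4 lists and 15.1% and 15.6% with those at equal length. The Sox2 share with Klf4 was 7.10%, 17.3%, 30.9%, 49.0%, 15.4% and 16.4% under these settings, without the 50% rule. The Klf4 share near a gene end was 48.3% at equal length, 43.2% with the q limit, 36.9% by midpoint, 53.0% within 5 kb and 32.7% for starts. With the other Klf4 lists it was 33.3% and 30.1%, and at equal length 27.7% and 24.1%. For Oct4 these were 9.75%, 8.52%, 9.79%, 25.3% and 8.62%, and for Sox2 18.9% within 5 kb and 3.47% for starts. H3K27ac overlap of regions with all 3 was 94.4% at equal length, 89.5% with the q limit and 34.6% by midpoint. For Klf4 alone it was 77.2%, 67.0% and 36.4%, for Oct4 alone 39.7%, 40.6% and 19.3%, and for Sox2 alone 37.5%, 49.1% and 14.8%. In the 500 bp window Klf4 alone had 63.0%, Oct4 alone 44.2% and Sox2 alone 55.9%. Leaving out either H3K27ac library gave 86.1% to 87.5% with all 3, 60.9% to 62.4% for Klf4 alone, 37.8% to 39.6% for Oct4 alone and 37.1% to 41.7% for Sox2 alone. Genes linked to all 3 numbered 325 at equal length, 231 with the q limit, 389 within 10 kb, 1944 within 50 kb and 430 by nearest gene. The q limit left 9269 Klf4, 1326 Oct4 and 1105 Sox2 peaks. The cause of these shifts was not tested, and without read depth no missing peak shows absence of binding.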

Other observations

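The region at the Pgk1 start (X:106186675-106187326) had folds of 13.4 for Klf4 and 26.5 for Oct4. Neither other asynchronous Klf4 list had a peak there, although it ranked at the 93.2 percentile of the EC-EA-3702 list. Among mitotic lists it was found in Klf4 mitotic 1 and Oct4 mitotic 1. The region was among the 4 strongest of Klf4 and Oct4.

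The 4 Oct4 regions inside Pou5f1 lay between 17:35509097 and 17:35510519, and were 204 to 236 bp wide. Each had a peak in the first mitotic Oct4 list and none in the second, which held more peaks (5282 against 1246). Of the asynchronous lists of other factors only Klf4 of project EC-EA-2643 met one of them, that at 17:35509425-35509660.

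The region of Klf4 and Oct4 inside Flrt1, the strongest of its kind, overlapped H3K27ac in 1 of the 2 asynchronous libraries (fold of 5.70). The Klf4 region inside Map3k6 (fold of 42.0) and the Oct4 regions at Ndufa4l2 and Lemd1 (46.1 and 44.9) overlapped H3K27ac in neither.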
